A study of Caenorhabditis elegans with 2 samples.

Results

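HMG-1.1 sites were examined at 8 genes of the Caenorhabditis elegans insulin signalling pathway, daf-2, age-1, daf-18, pdk-1, akt-1, akt-2, sgk-1 and daf-16, out of 19973 protein-coding genes of the nuclear chromosomes. The genes were listed by name. For each gene, every peak summit was collected from 5000 bp upstream of its outermost annotated start to the annotated gene end. The protein belongs to the high mobility group box family, small chromatin proteins that bend DNA. Chromatin immunoprecipitation and sequencing had been done with an antibody against GFP on strain RW12311, in which CRISPR insertion placed a TY1, EGFP and 3xFLAG tag at the hmg-1.1 locus on chromosome II. Whole L4 larvae aged 48 hours, synchronised by bleaching and starvation as L1 larvae, gave 2 biological replicates that form 1 group. A whole animal mixes all tissues, so a site cannot be tied to a cell type, and the control experiment was not analysed here.

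Insulin signalling in the worm runs from insulin-like peptides to the receptor DAF-2, which acts through the phosphoinositide 3-kinase AGE-1. The lipid that AGE-1 makes is removed by the phosphatase DAF-18 and otherwise recruits PDK-1, which activates the kinases AKT-1, AKT-2 and SGK-1. These kinases keep the FOXO transcription factor DAF-16 out of the nucleus. The pathway is known for its control of dauer entry, lifespan, fat storage and stress resistance.

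The main list, which the authors call conservative, was made from both replicates and held 4277 peaks that passed a threshold on the irreproducible discovery rate (IDR, an estimate of the share of peaks that do not repeat). Thresholded lists of single replicates held 2613 peaks in replicate 1 and 3082 in replicate 2. Ranked lists without a threshold held 50642 peaks in replicate 1, 46532 in replicate 2 and 84052 for the series. Each peak carries the authors' signal, on a scale the sources used here do not state, with a median of 110.48 in the conservative list. It was compared within a list only, and rank 1 is the highest signal. Depth is unknown, since no read counts accompany the peaks.

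The windows of 5 of the 8 genes held a conservative summit: daf-2, pdk-1, akt-1, akt-2 and daf-16, with 15 summits in all. Such a summit was present in the windows of 26.5% of all protein-coding genes. All 8 genes were longer than the median protein-coding gene (2027 bp), and among the 4490 genes at least as long as the shortest of them (akt-1, 3941 bp) the share was 41.3%. Replicate 1 had summits in its thresholded list at daf-2, pdk-1, akt-2 and daf-16 (4 of 8 genes, against 17.6% of all genes), and replicate 2 at pdk-1, akt-1, akt-2 and daf-16 (4 of 8, against 20.3%). Summits were thus found in all 3 lists at pdk-1, akt-2 and daf-16, and in none of them at age-1, daf-18 and sgk-1. On the X chromosome 2 of the 3 genes had a conservative summit (31.4% of all X genes) and on the autosomes 3 of 5 (25.7%). With so few genes these shares are descriptions and were not tested.

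The sequence around the 7 conservative summits outside daf-16 shows what the sites described next consist of, each as 201 bp centred on the summit, from the reference genome (ce11), written 5′ to 3′ on the strand of the gene. Capitals mark GTAAACA, the core of the element that DAF-16 binds, or its reverse complement TGTTTAC.
daf-2 at 3311 bp (chrIII:3037435-3037635, minus strand): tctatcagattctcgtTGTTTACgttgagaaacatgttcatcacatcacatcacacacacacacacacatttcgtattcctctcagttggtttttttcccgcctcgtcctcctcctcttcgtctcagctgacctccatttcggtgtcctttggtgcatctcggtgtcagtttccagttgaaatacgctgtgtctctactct
daf-2 at 4610 bp (chrIII:3036136-3036336, minus strand): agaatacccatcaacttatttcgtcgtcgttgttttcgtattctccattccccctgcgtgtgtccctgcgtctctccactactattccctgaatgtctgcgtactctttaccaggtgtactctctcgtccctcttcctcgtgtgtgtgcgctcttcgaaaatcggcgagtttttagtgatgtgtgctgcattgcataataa
pdk-1 at -1392 bp (chrX:1319852-1320052, plus strand): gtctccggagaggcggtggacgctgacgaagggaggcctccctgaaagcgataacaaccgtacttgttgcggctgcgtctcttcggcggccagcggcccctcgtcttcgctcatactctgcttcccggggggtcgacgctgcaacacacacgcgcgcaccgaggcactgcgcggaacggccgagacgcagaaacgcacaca
pdk-1 at 1842 bp (chrX:1323086-1323286, plus strand): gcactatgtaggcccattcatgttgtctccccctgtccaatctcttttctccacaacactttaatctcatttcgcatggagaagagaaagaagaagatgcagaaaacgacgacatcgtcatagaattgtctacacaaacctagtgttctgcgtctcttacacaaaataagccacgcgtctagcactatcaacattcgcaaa
akt-1 at -2307 bp (chrV:10246498-10246698, plus strand): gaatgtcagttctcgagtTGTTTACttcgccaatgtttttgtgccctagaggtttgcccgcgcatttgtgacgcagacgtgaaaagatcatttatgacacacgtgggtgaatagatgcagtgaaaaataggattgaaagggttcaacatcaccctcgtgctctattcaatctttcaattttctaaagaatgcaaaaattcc
akt-2 at -716 bp (chrX:14146884-14147084, plus strand): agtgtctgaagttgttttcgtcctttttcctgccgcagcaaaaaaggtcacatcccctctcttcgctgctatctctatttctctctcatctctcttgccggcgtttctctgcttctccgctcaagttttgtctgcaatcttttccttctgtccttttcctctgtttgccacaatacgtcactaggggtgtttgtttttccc
akt-2 at 576 bp (chrX:14148176-14148376, plus strand): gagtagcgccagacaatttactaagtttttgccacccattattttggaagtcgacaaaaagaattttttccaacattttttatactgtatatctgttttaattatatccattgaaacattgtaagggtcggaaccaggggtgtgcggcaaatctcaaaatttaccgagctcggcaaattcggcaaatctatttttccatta

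The motif appeared in the printed stretches of akt-1 and of daf-2 at 3311 bp, both as the reverse complement. The pdk-1 stretch at -1392 bp was the richest in G and C of the 7 (65.7%), and the akt-2 stretch at 576 bp the poorest (35.8%).

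**Figure D1:**
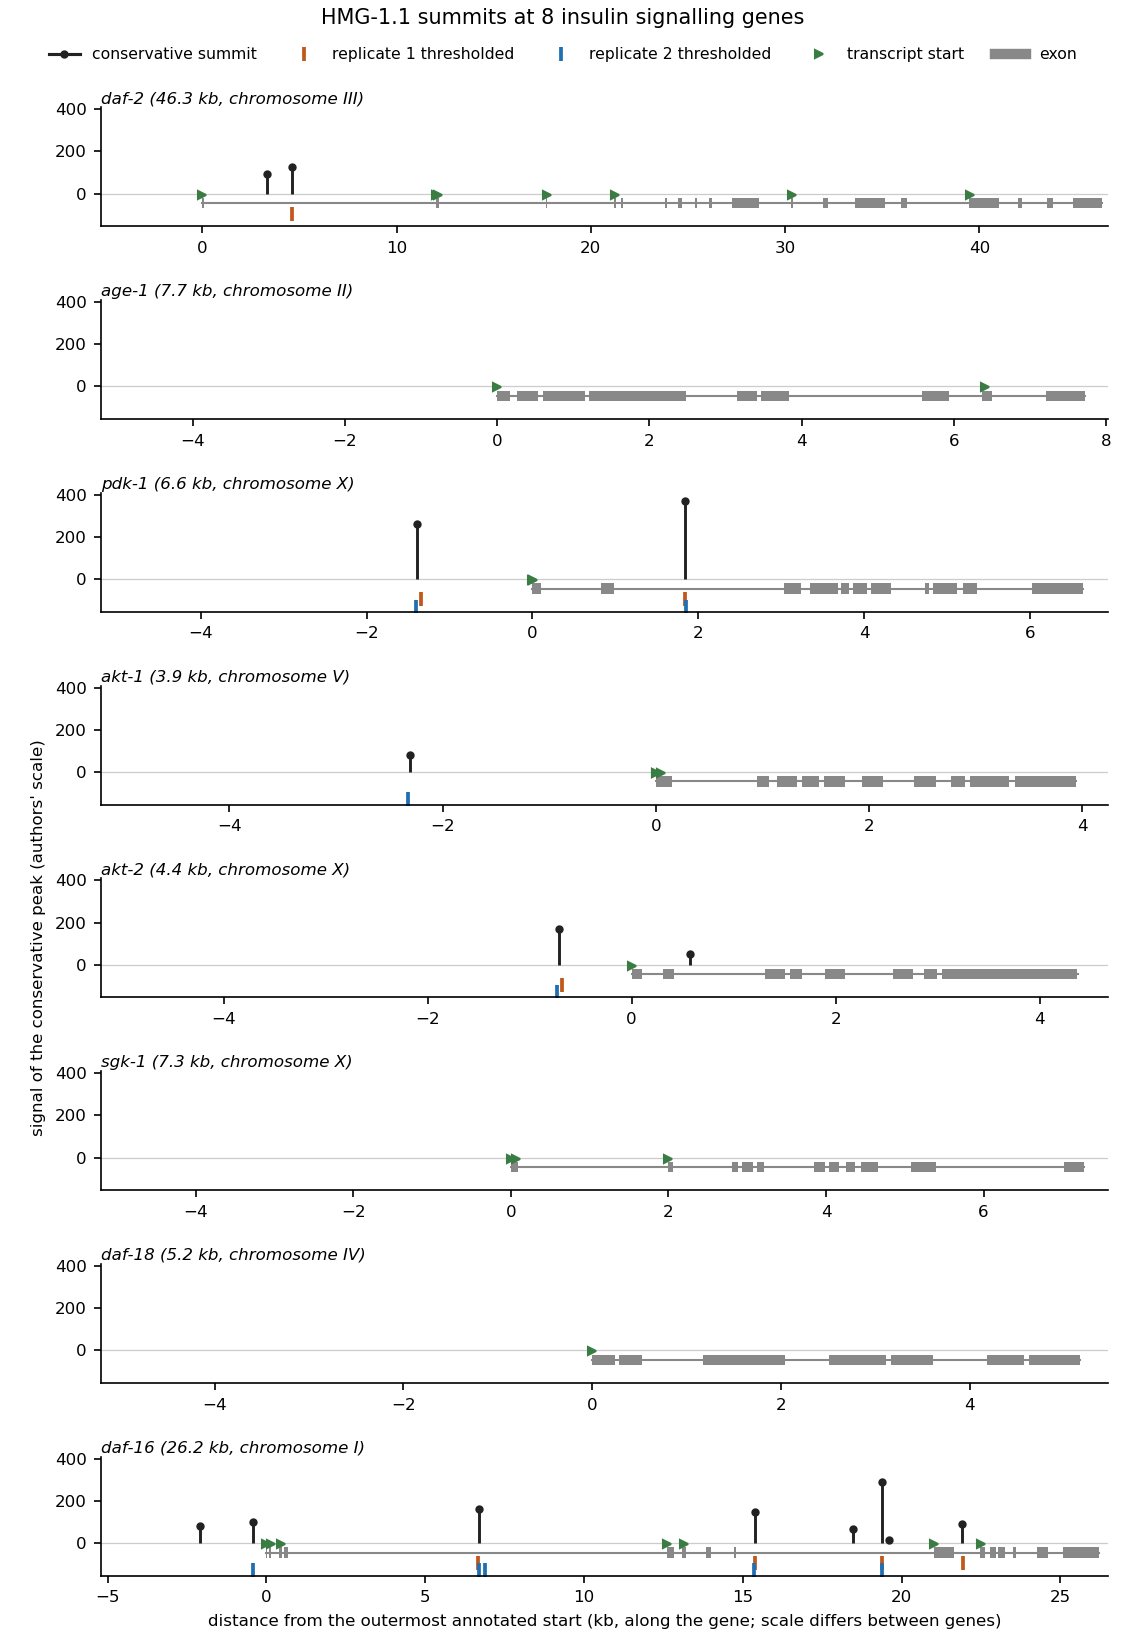
Conservative summits along the 8 genes, plotted by distance in kb from the outermost annotated start against the authors' signal, with exons (grey), annotated transcript starts (green) and the thresholded summits of replicate 1 (orange) and replicate 2 (blue) under each gene. The 10 summits inside genes all fall in introns, 8 of the 15 lie in the daf-16 window, and the windows of age-1, sgk-1 and daf-18 are empty.

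Both conservative sites at the receptor gene lay in its first intron. daf-2 (WBGene00000898, III 2994514 to 3040846, minus strand, 46.3 kb, ce11) is the longest of the 8 genes and has 7 annotated transcript starts. The stronger site, at 4610 bp from the outermost start, had a signal of 125.8 (rank 1791 of 4277). In replicate 1 it had a signal of 62.5 and was in the thresholded list. In replicate 2 it had a signal of 65.1 in the ranked list and an IDR of 0.0156, which did not reach the threshold of 0.01. The second site, at 3311 bp, had a conservative signal of 93.2 (rank 2697), with 35.7 in replicate 1 (IDR 0.717) and 59.6 in replicate 2 (IDR 0.0131), and was in neither thresholded list. Both summits lay inside linc-143, a long intergenic non-coding RNA gene annotated on the same strand within the intron, 8 bp and 1307 bp from its start. No conservative summit lay within 500 bp of any of the 7 daf-2 transcript starts.

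Set against other long genes in the conservative list, the daf-2 window lay above the median density. It held 0.39 conservative summits per 10 kb, and the 198 protein-coding genes of at least 20 kb had a median of 0.291 per 10 kb, with a median of 1 summit per window (quartiles 0 and 2) and at least 1 summit in 120 of them (60.6%). Of these 198 genes, 164, daf-2 among them, had at most the 2 summits of daf-2. The density of daf-2 rests on both summits, and the one at 3311 bp was in neither replicate's thresholded list. The other thresholded list made from both replicates had 1 summit in the window, at 4610 bp, and that of replicate 2 had 0. The ranked lists, which have no threshold, held 57 summits in the daf-2 window for the series, 34 in replicate 1 and 32 in replicate 2.

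The genes that make and remove the pathway's lipid signal had no site in any thresholded list. age-1 (WBGene00000090, II 11519328 to 11527054, minus strand), which encodes the catalytic subunit of phosphoinositide 3-kinase, had its strongest ranked summit of the series list in a coding exon at 3309 bp, with a signal of 37.8 (rank 16515 of 84052). The strongest in replicate 1 lay at 1397 bp (signal 25.5, rank 9553 of 50642) and that in replicate 2 at 4175 bp (signal 20.3, rank 18069 of 46532). The replicates thus had their strongest age-1 summits in different places, and that of replicate 2 also lay inside another protein-coding gene, Y62F5A.10. In the daf-18 window (WBGene00000913, IV 420011 to 425177, minus strand) the strongest ranked summit lay at -2377 bp with a signal of 64.8 (rank 4800). The strongest in replicate 1 lay at -2274 bp with a signal of 24.6 (rank 10411, IDR 0.365), and the strongest in replicate 2 at -2476 bp with a signal of 43.0 (rank 3631, IDR 0.265). For the summit of the series list the nearest protein-coding start was that of garr-1, 1386 bp away. In both replicates the IDR of these daf-18 summits was above the threshold of 0.01.

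pdk-1, the kinase gene that connects the lipid signal to AKT-1, AKT-2 and SGK-1, held the strongest site of the pathway. pdk-1 (WBGene00003965, X 1321344 to 1327986, plus strand, 6.6 kb) had a summit in intron 2 at 1842 bp with a conservative signal of 372.0, rank 178 of 4277. Its signal was 196.7 in replicate 1 (rank 114 of 50642 ranked peaks) and 179.1 in replicate 2 (rank 268 of 46532). It therefore stood in the top 0.225% and 0.576% of the ranked peaks (mean 0.4% ± 0.248, SD, n = 2). The other pdk-1 site, upstream at -1392 bp, had a conservative signal of 259.9 (rank 506). It had 128.0 in replicate 1 (rank 441) and 127.1 in replicate 2 (rank 646), a mean place in the top 1.13% ± 0.367 (SD, n = 2). Both sites were in both replicates' thresholded lists, and the replicate summits lay within 44 bp of the conservative ones. Neither site lay within 500 bp of the pdk-1 start.

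The ranked lists were sparse at pdk-1 outside these sites. The window of 11.6 kb held 8 ranked summits of the series list, 4 of replicate 1 and 2 of replicate 2, and the 2 of replicate 2 were the called sites themselves.

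The AKT genes had weaker sites, and the replicates did not share the one at akt-1. akt-1 (WBGene00000102, V 10248905 to 10252845, plus strand) had a single conservative summit, upstream at -2307 bp, with a signal of 79.6 (rank 3234). Replicate 2 had it in its thresholded list at -2320 bp with a signal of 52.7 (rank 2695 of the ranked peaks, IDR 0.00532). Replicate 1 had no ranked peak that overlapped it, and its strongest summit in the akt-1 window lay at -1797 bp with a signal of 31.1 (rank 5765). The akt-1 site thus rests on replicate 2 and on the list made from both replicates.

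akt-2 (WBGene00000103, X 14147700 to 14152070, plus strand) had a site in all lists, upstream at -716 bp. Its conservative signal was 170.0 (rank 1142), with 80.2 in replicate 1 (rank 1116) and 89.1 in replicate 2 (rank 1240), a mean place in the top 2.43% ± 0.325 (SD, n = 2). The second akt-2 summit, in intron 2 at 576 bp, was near the bottom of the conservative list with a signal of 52.3 (rank 4030) and a q-value of 0.368. It had signals of 31.5 and 33.7 in the replicates, in neither thresholded list. sgk-1 (WBGene00004789, X 16254842 to 16262122, minus strand), the gene of the related kinase, had no thresholded summit. Its strongest ranked summit in the series list lay in intron 10 at 6459 bp with a signal of 50.2 (rank 8370). The strongest of replicate 2 was at 6434 bp (signal 28.2), and the strongest of replicate 1 at -1451 bp (signal 24.9). The series list also had summits at -1497 bp (signal 44.3) and -204 bp (signal 42.7) of sgk-1, both weaker than the one in the intron. These 2 summits and the strongest of replicate 1 lay inside another protein-coding gene, mua-6.

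**Figure D2:**
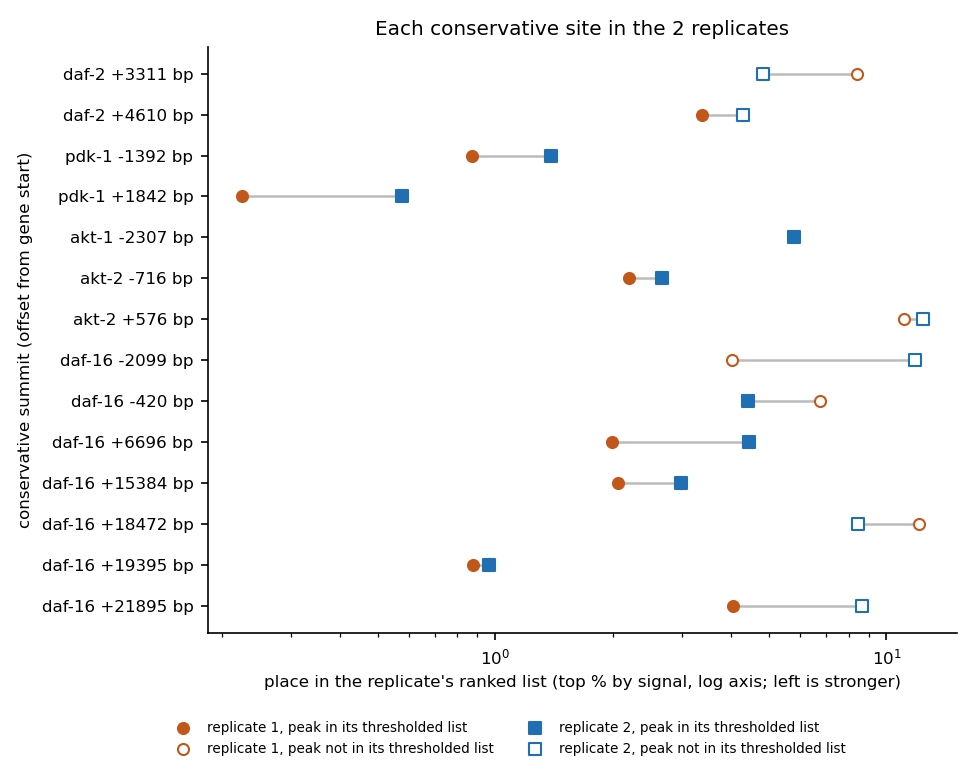
Place of each conservative site in the ranked list of replicate 1 (orange circles) and replicate 2 (blue squares), as the top percent by signal on a log axis, with filled symbols where the overlapping peak was in that replicate's thresholded list. The pdk-1 sites and the daf-16 site at 19395 bp are farthest to the left, akt-1 has no overlapping ranked peak in replicate 1, and the daf-16 peak at 19596 bp, which overlaps that at 19395 bp, is not drawn again.

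daf-16, the gene of the FOXO transcription factor at the end of the pathway, held 8 of the 15 conservative summits. It spans 26.2 kb (WBGene00000912, I 10750498 to 10776703, plus strand), with 11 annotated transcripts from 7 starts between 0 and 22501 bp. The strongest site lay at 19395 bp, in intron 6, at -1615 bp from the start of transcript R13H8.1a at 21010 bp. Its conservative signal was 290.7 (rank 398), with 128.0 in replicate 1 (rank 443) and 149.9 in replicate 2 (rank 447), a mean place in the top 0.918% ± 0.0608 (SD, n = 2). A weak peak at 19596 bp with a signal of 15, rank 4146 and a q-value of 0.913 overlapped it, so the 15 summits of the pathway lie in 14 separate regions.

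Another 2 daf-16 sites were in both replicates' lists. The site at 6696 bp, in intron 3, had a conservative signal of 160.6 (rank 1253), with 85.1 in replicate 1 and 63.3 in replicate 2. The site at 15384 bp, in intron 6, had a conservative signal of 145.8 (rank 1459), with 83.4 and 82.9. Their mean places were the top 3.22% ± 1.74 and 2.53% ± 0.658 (SD, n = 2 each), which overlap between the sites.

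The remaining 4 daf-16 summits were weaker and were in the list of at most 1 replicate. The site at -420 bp, the only one within 500 bp of an annotated daf-16 start, had a conservative signal of 98.8 (rank 2501). It was in the list of replicate 2 (signal 63.4, IDR 0.00092) and not in that of replicate 1 (signal 40.1, IDR 0.0583). The site at 21895 bp, at -606 bp from the start of R13H8.1e, had a conservative signal of 92.7 and was in the list of replicate 1 (signal 54.9, IDR 0.00202) but not of replicate 2 (signal 40.5, IDR 0.0241). The sites at -2099 bp (conservative signal 83.4) and 18472 bp (66.4, q-value 0.0964) were in neither. At -2099 bp replicate 1 had a signal of 55.1 (IDR 0.0141) and replicate 2 a signal of 34.7 (IDR 0.369).

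The number of summits at daf-16 was high even for a long gene. Of the 19973 protein-coding genes, 7 had more conservative summits in their windows and 5, daf-16 among them, had 8. Of the 198 genes of at least 20 kb, 6, daf-16 among them, had at least as many. Its window held 2.56 conservative summits per 10 kb, against 1.72 at pdk-1, 2.13 at akt-2 and 1.12 at akt-1. The 8 summits of daf-16 include the weak peak at 19596 bp, and others were also weak. Among the stronger peaks by signal daf-16 kept 3 summits and pdk-1 kept 2, and the same numbers remained at an IDR of at most 0.001. In the replicates' lists, which had 4 and 5 summits at daf-16, 25 and 14 genes had more. The other thresholded list made from both replicates (4414 peaks) had 11 at daf-16, with added summits at 1419, 6020, 6895 and 23892 bp and without the peak at 19596 bp, and it had no summit at akt-1. One of the 5 summits of replicate 2, at 6897 bp, had a signal of 4.68, rank 3015 of 3082.

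**Figure D3:**
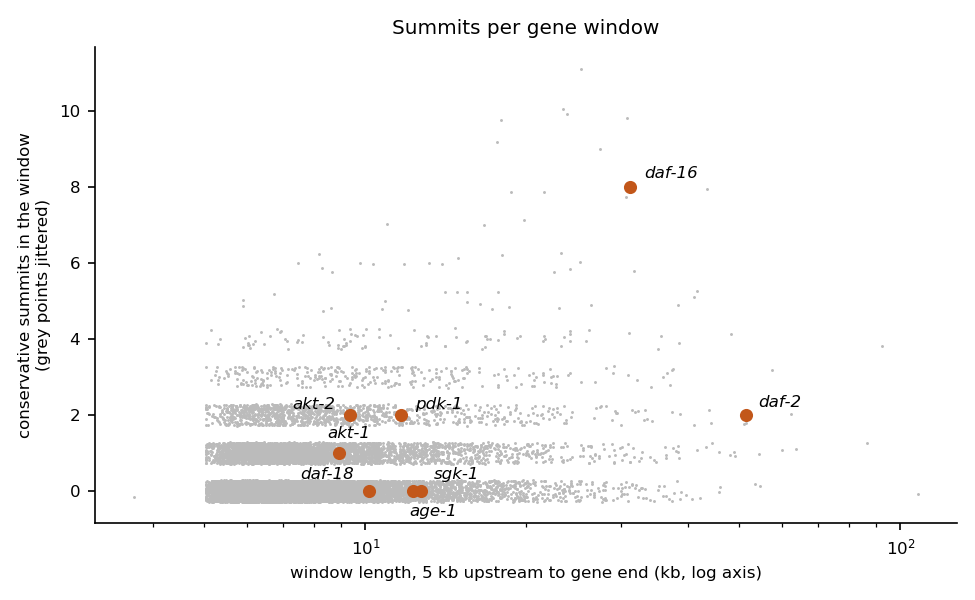
Number of conservative summits in each protein-coding gene's window against the window's length in kb on a log axis, with the 8 insulin signalling genes in orange and all other genes in grey, jittered. daf-16 stands at 8 summits and daf-2, with the longest of the 8 windows, at 2.

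Ranked by the strongest summit in their windows, the 8 genes spread over a wide part of all genes. pdk-1 stood in the top 1.03% of the 19973 genes in replicate 1 and the top 2.42% in replicate 2 (mean 1.73% ± 0.983, SD, n = 2), and daf-16 in the top 3.85% and 3.92% (mean 3.88% ± 0.0495). akt-2 followed in the top 9.31% and 10.2% (mean 9.75% ± 0.629) and daf-2 in the top 13.6% and 15.8% (mean 14.7% ± 1.56). The values of these 4 genes did not overlap between neighbours in the order. akt-1 (32.4% and 20.1%), daf-18 (46.7% and 24.5%), sgk-1 (45.8% and 42.4%) and age-1 (44.4% and 61.5%) came after them, and the ranges of neighbours in this part of the order overlapped. A longer window has more chances of a strong summit, and the windows run from 8.9 kb at akt-1 to 51.3 kb at daf-2.

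**Figure D4:**
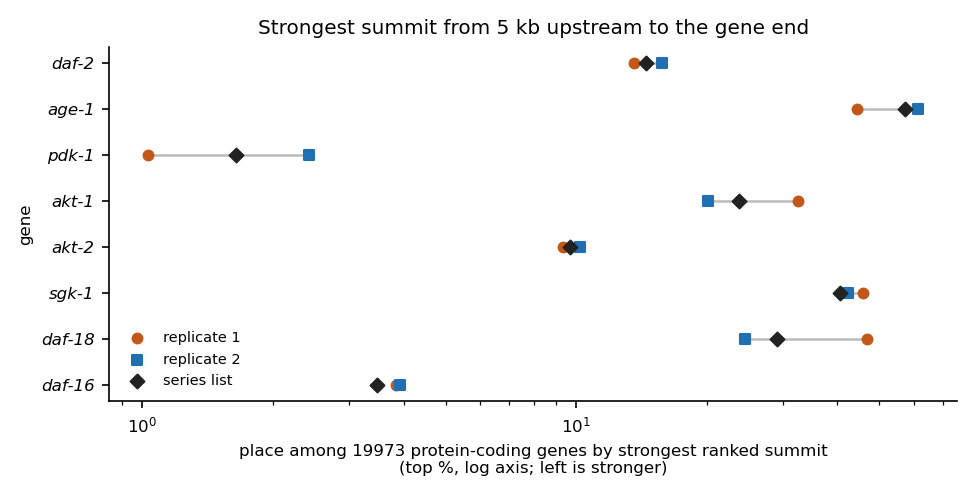
Place of the 8 genes among all protein-coding genes by the strongest ranked summit in the window, as the top percent on a log axis, in replicate 1 (orange), replicate 2 (blue) and the series list (black). pdk-1 and daf-16 lie under 4% in both replicates. In percentage points the replicates are farthest apart for daf-18, age-1 and akt-1, and on the log axis for pdk-1 (1.03% and 2.42%).

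By position, 5 of the 15 summits lay upstream of a gene, 10 in introns and none in an exon. Of the 1507 conservative summits inside protein-coding genes of the genome, 1097 (72.8%) were intronic. Only daf-16 had a summit within 500 bp of its outermost start, which is 1 of 8 genes against 9.78% of all protein-coding genes. In replicate 1 none of the 8 did (6.06% of all genes) and in replicate 2 again daf-16 alone (7.3%). Counting any annotated transcript start, the number was still 1 of 8 (10.6% of all genes). With only the outermost start of each protein-coding gene counted, the nearest start was that of the same gene for 11 of the 15 summits. For the 4 at 18472 bp and beyond in daf-16 it was that of gpx-8, at least 10497 bp away. Inner transcript starts of daf-16 were nearer to these 4 summits, which lay at -2538 to -606 bp from them.

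Non-coding genes lay at 6 of the 15 summits, against 26.7% of all 4277. Besides linc-143, which held both daf-2 summits, these were H36N01.1 and H36N01.4 at the daf-16 summit at -420 bp (starts 76 and 48 bp away) and R13H8.4 at 6696 bp (9 bp away). R13H8.5 lay at the overlapping daf-16 peaks at 19395 and 19596 bp (317 and 116 bp away). The 6 summits are thus not 6 separate places. The 4 genes at daf-16 are annotated as ncRNA, with no function given. The summits of pdk-1, akt-1 and akt-2 had none.

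Of the 15 conservative summits, 7 were in both replicates' thresholded lists, 4 in that of 1 replicate and 4 in neither. The 7 include the weak daf-16 peak at 19596 bp, which had no thresholded summit of its own in either replicate. It overlapped the replicates' thresholded peaks with summits at 19370 and 19387 bp, which are those of the site at 19395 bp. Counted as separate regions, 6 of 14 were in both. The replicates' lists, with 2613 and 3082 peaks, are shorter than the conservative list of 4277. The share of all conservative peaks found in both is not given here, so these counts describe the 15 summits alone. The 7 summits above the median signal of the conservative list were both pdk-1 sites, akt-2 at -716 bp, daf-2 at 4610 bp and daf-16 at 6696, 15384 and 19395 bp, and all of these but daf-2 at 4610 bp were in both lists. The density over the windows together was 1.016 conservative summits per 10 kb, against 0.427 over the 6 nuclear chromosomes (2.38 times) and 0.459 over the windows of all protein-coding genes. It was 2.08 times the genome's in the list of replicate 1 and 1.98 times in that of replicate 2. Without daf-16, a choice made after seeing the data, the conservative ratio was 1.41.

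The DNA at the summits was richer in G and C than the DNA around it, as at most conservative summits. Within 50 bp of the summit the median G+C content was 48.5%, against 34.2% in the flanks 500 bp to either side, and 14 of the 15 summits were above their flanks. Over all 4277 summits the medians were 48.5% and 35.1%, and 88.1% were above their flanks. The range over the 15 was 33.7% to 62.4%, with the highest value at pdk-1 -1392 bp and daf-16 15384 bp. The exception was daf-16 at 18472 bp (33.7% against 38.6%), which was in neither replicate's thresholded list. The sites of akt-2 at 576 bp, daf-16 at -2099 bp and daf-2 at 3311 bp were also in neither, and they were above their flanks.

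**Figure D5:**
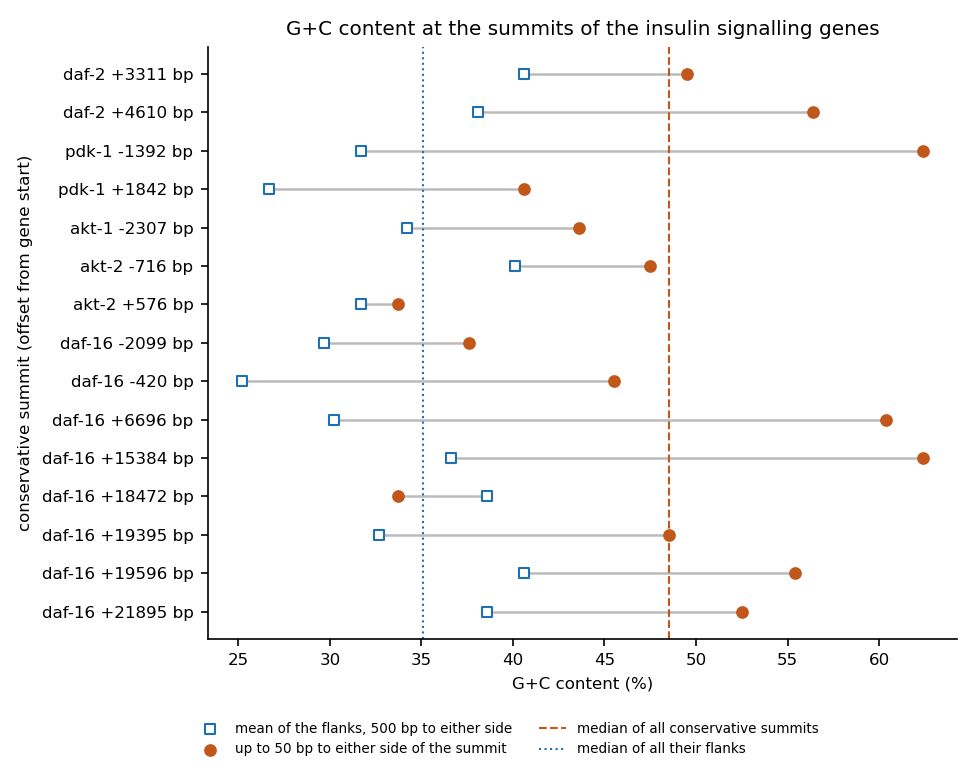
G+C content in percent within 50 bp of each of the 15 summits (orange circles) and the mean of its flanks 500 bp to either side (open blue squares), with the medians over all conservative summits (dashed) and all their flanks (dotted). All summits except daf-16 at 18472 bp lie to the right of their flanks.

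Motifs known from DAF-16 biology were looked for within 150 bp of each summit, on both strands. GTAAACA was present in 3 of the 15 windows of 301 bp, at akt-1, daf-2 at 3311 bp and daf-16 at -420 bp. It was present in 4.3% of the windows of all conservative summits (184 of 4277). None of these 3 sites was in both replicates' thresholded lists. The akt-1 and daf-16 sites were in that of replicate 2 alone, and the daf-2 site was in neither. CTTATCA, the DAF-16 associated element that the zinc finger protein PQM-1 binds, was present in 2 (daf-16 at -2099 bp and pdk-1 at -1392 bp, there outside the printed bases) and in 4.3% of all (184). No window held both motifs, and a match is a run of letters, not a measured site of DAF-16 or PQM-1.

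The genes around the core pathway were taken as 4 lists, of which 96 of 100 symbols were matched to a single protein-coding gene. A conservative summit within 500 bp of the start was present at 15 of the 96 (15.6%). Of these 15 genes, 9 also had a start summit in the thresholded list of replicate 1 and 10 in that of replicate 2. The 39 insulin-like peptide genes, the ligands of DAF-2, had none in any of the 3 lists. In their windows 1 of them (2.56%) had a conservative summit, against 26.5% of all protein-coding genes. It was ins-39, named after its value was seen. Window lengths were not matched in this comparison. Among 17 genes of adaptors, TORC and AKT regulators there were 3: rheb-1 (signal 180.3), the gene of a small GTPase that activates TOR, pptr-1 (70.1), which encodes a phosphatase subunit acting on AKT-1, and raga-1 (64.8), a Rag GTPase gene. The rheb-1 summit was nearer to the start of spk-1. None of the 3 had a start summit in replicate 1, and replicate 2 had 1, at rheb-1.

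Genes of DAF-16 partners and regulators had a start summit in 7 of 18 cases, of which 5 also had one in replicate 1 and 4 in replicate 2. The strongest were at ogt-1 (signal 210.2), the gene of the O-GlcNAc transferase, par-5 (205.7), a 14-3-3 gene whose summit was nearer to M117.3, swsn-1 (185.3), a SWI/SNF subunit gene, and hel-1 (150.7), an RNA helicase gene. Known DAF-16 target genes had one in 5 of 22 cases, of which 4 also had one in replicate 1 and 5 in replicate 2. The strongest were at mdl-1 (277.2), a Mad-like transcription factor gene, sip-1 (117.3, nearer to sly-1), and hsp-16.2 and hsp-16.41, which share a summit between them (113.0). The lists were chosen with results of these data known, so their shares are given beside the 9.78% of all protein-coding genes without a test.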

How the data were processed

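Chromatin immunoprecipitation of tagged HMG-1.1 had been sequenced in 2 biological replicates of 1 group, numbered per the labels. The deposited lists are in narrowPeak format on ce11, per the labels, and hold the authors' signal for each peak. They also hold the authors' −log10 q-value and, in the deposited ranked lists, a −log10 IDR, and the thresholded lists end at an IDR of 0.01. Neither the aligner and peak caller nor the scale of the signal is given in the sources used. The ranked lists carry 32 columns of per-sample values with no labels, which were not used.

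Summits were placed on Ensembl release 115 genes, and sequence was read from the NCBI assembly of the same build, with Python 3.11.15, numpy 2.4.6 and pandas 2.3.3. Ranks within each list were set by signal. Intron numbers refer to the longest transcript that holds the summit. A conservative peak counted as present in a replicate when it overlapped a thresholded peak there by at least 1 bp, and the overlapping ranked peak with the nearest summit gave the replicate's signal and IDR. A non-coding gene counted when the summit lay in it or within 500 bp of its start. piRNA genes and pseudogenes were left out of that class. The functions recovered the known answers when tested on simulated data. Means ± SD over 2 replicates describe spread only, and no hypothesis test was made, since there is 1 group.

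The 8 genes, the lists and the motifs were chosen with earlier results of these data known. The rule for names takes all 8 genes with all their summits, the nearest protein-coding start and non-coding genes, and up to 4 genes per list with the strongest summit at the start. ins-38 and dod-8 were not matched, and hsp-16.1 and hsp-16.48, each the symbol of 2 genes, were left out. Alternatives were the other thresholded list, the stronger peaks by signal, an IDR of at most 0.001, a q-value of at most 0.05, each replicate alone, merged regions, other distances and reaches, nearest start alone and other overlap rules. Leaving out daf-16 was added after seeing the data.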

Additional observations from a re-analysis of the deposited data

How the results depend on the processing

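Of 66 alternative values of 7 results, 42 stayed within the limits set for them and 24 moved. For counts the limit was a fixed factor, so 5 genes with a window summit falling to 4 stayed within it. For the density ratio it was the SD of the 2 replicates' ratios (0.0679), so 2.31 against 2.38 counted as moved. The windows of age-1, sgk-1 and daf-18 had no summit in any of the other lists and subsets tried, and pdk-1, akt-2 and daf-16 had one in each of them. daf-2 lost its summits in the list of replicate 2. akt-1 lost its summit in the list of replicate 1, the other thresholded list, the stronger peaks by signal and the peaks with an IDR up to 0.001. The number of summits in the windows, 15, was 7 among the 2138 stronger peaks by signal, 7 at an IDR up to 0.001, and 8 to 9 with either replicate left out. The count of genes with a summit within 500 bp of the gene start, or of any transcript start, was 1, namely daf-16. It was 0 among the stronger peaks, at the stricter IDR and at 250 bp, 2 at 1000 bp, where akt-2 was added, and 0 to 1 with either replicate left out. Among the other pathway genes the 15 genes with a start summit became 9 to 11 with either replicate left out. They were 10 at 250 bp, 22 at 1000 bp and 10 when only the nearest protein-coding start counted. The density ratio of 2.38 was 2.31 in the other thresholded list, 2.22 among the stronger peaks, 1.95 at the stricter IDR, 2.28 at a q-value of at most 0.05, 1.98 to 2.08 with either replicate left out, 2.46 with 2000 bp upstream and 2.18 over gene bodies alone. Leaving out daf-16, chosen after seeing the data, gave 1.41. Shorter lists hold fewer peaks by construction, and for the ratios the cause was not tested. No paired analysis was possible because the series has 1 group. Depth is unknown, so an empty window means that no summit passed the threshold there, not that HMG-1.1 is absent.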

Other observations

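The weak daf-16 peak at 19596 bp, which overlaps a stronger one, belongs to a small class in the conservative list. Of its 195 peaks with a signal under 30, 189 (96.9%) overlapped a stronger peak of the list, against 78 of the other 4082 (1.91%). A count of summits per gene therefore differs from a count of separate regions at genes with such peaks, and at daf-16 it is 8 summits in 7 regions.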
